A study of Mus musculus with 6 samples.

Results

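The dual-specificity MAP kinase phosphatases (MKPs) were examined as a gene family in neutrophils lacking progranulin (PGRN). The members were the 8 genes Dusp1, Dusp2, Dusp4, Dusp5, Dusp6, Dusp7, Dusp10 and Dusp16, found by gene symbol among the 54532 genes of the deposited table, and all 8 were measured in every library. They were compared between 3 wild-type (WT) and 3 progranulin knockout (PGRN KO) cultures, to ask how the loss of PGRN alters the transcriptional response of neutrophils to a fungus. Both genotypes are labelled C57BL/6J. Per the methods of the study, the PGRN KO mice were bought from the Jackson Laboratory and the WT mice from Chongqing Medical University. Differences due to genotype and to the source of the mice therefore cannot be told apart. Neutrophils were taken from mouse bone marrow with beads against the neutrophil surface protein Ly-6G, kept in culture for 2 h, and then all 6 cultures, WT included, received live Candida albicans for 6 h. No unchallenged library was analysed here, so no value below is a response to the fungus itself. The titles call the WT libraries controls, but their treatment label is the same challenge. Neither the labels nor the methods state the age or sex of the mice, or how many supplied a culture, so the p-values below measure the spread between these cultures. The labels give a multiplicity of infection of 1:1 and the methods of the study 1:10.

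MAP kinases (ERK, JNK and p38) are switched on by phosphorylation of a threonine and a tyrosine in the same loop, and the MKPs switch them off by removing both phosphates. Most MKP genes are themselves switched on within minutes to hours of the stimulus that activates the kinases, which makes the family a negative feedback on inflammatory signalling. DUSP1, DUSP2, DUSP4 and DUSP5 are nuclear and inducible, DUSP6 and DUSP7 are cytoplasmic and act mainly on ERK, and DUSP10 and DUSP16 act mainly on JNK and p38.

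The members share a catalytic signature, a histidine and a cysteine followed after 5 residues by an arginine, in which the cysteine attacks the phosphate. The coding bases of that signature are shown because this stretch carries the activity that makes the genes a family. They were read 5′ to 3′ from the GENCODE M21 transcripts of GRCm38, and capitals mark the codons of the histidine, the cysteine and the arginine.
Dusp1: CATTGCcaggccggcatctccCGG
Dusp2: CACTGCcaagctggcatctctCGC
Dusp4: CACTGCcaggccggcatctccCGA
Dusp5: CACTGCgaagctggggtttccCGG
Dusp6: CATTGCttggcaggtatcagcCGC
Dusp7: CACTGCctagcaggcatcagcCGT
Dusp10: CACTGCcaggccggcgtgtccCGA
Dusp16: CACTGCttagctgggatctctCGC
Within these 24 bases Dusp4 matched Dusp1 and Dusp10 at 22 positions each, and the least alike pair, Dusp5 and Dusp6, matched at 13. The catalytic cysteine is codon 258 of the 367 coding triplets of Dusp1 and codon 244 of the 660 of Dusp16, the longest member. Dusp16 has 7 exons in its transcript and the others 3 or 4. No pair was identical over these bases.

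The part of each promoter before the annotated gene start is shown for Dusp1, Dusp5 and Dusp2, the members with the highest levels, since these were also the members with the largest differences between genotypes. Sequences come from the RefSeq promoter table for GRCm38.p6, which held 7 of the 8 members (Dusp4 was not matched), and the windows of Dusp1 and Dusp5 stop where the annotation of the deposited table starts the gene. Capitals mark matches to the motifs searched on both strands: the cyclic AMP response element (CRE) TGACGTCA, its shorter form TGACGT, the AP-1 motif TGANTCA, the E-box CACGTG, the ETS core CCGGAA and the NF-kB motif (GGG, 2 bases of any kind, TTT and CC). The shorter CRE was added after the sequences had been seen, and it overlaps the full CRE.
Dusp1, chr17:26508520-26508722, minus strand: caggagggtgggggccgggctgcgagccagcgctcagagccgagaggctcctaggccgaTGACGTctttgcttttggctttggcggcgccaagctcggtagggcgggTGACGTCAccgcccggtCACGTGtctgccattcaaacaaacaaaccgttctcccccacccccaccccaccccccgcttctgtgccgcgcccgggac
Dusp2, chr2:127335909-127336158, plus strand: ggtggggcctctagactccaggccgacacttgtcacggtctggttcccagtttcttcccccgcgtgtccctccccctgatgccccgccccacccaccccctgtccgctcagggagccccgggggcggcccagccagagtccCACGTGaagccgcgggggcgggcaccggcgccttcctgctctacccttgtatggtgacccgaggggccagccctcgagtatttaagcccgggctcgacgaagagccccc
Dusp5, chr19:53528895-53529108, plus strand: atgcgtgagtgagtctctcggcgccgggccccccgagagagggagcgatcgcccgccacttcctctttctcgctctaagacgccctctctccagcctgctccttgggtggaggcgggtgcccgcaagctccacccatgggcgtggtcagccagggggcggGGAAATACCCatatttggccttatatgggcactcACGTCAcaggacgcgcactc
Dusp1 held a full CRE from 143 to 136 bases before its RefSeq start, a second short CRE from 191 to 186 and an E-box from 126 to 121. Dusp2 held an E-box from 109 to 104 bases before its start. Dusp5 held an NF-kB match on the minus strand from 90 to 81 and a short CRE from 56 to 51. The windows of Dusp6, Dusp7, Dusp16 and Dusp10, whose RefSeq start lies inside the gene as the deposited table annotates it, held none of these letters. Among 32851 mouse promoter windows of 250 bases, the full CRE was in 1.55%, the short CRE in 6.47%, the E-box in 6.02%, the NF-kB motif in 1.41%, the AP-1 motif in 6.75% and the ETS core in 12.0%. Bases G and C made up 68.4%, 70.4% and 64.0% of the 250-base windows of Dusp1, Dusp2 and Dusp5. In those of Dusp6, Dusp7, Dusp10 and Dusp16 they made up 56.4% to 77.2%, beside a median of 52.4% over all promoters. The shares over all promoters were not matched for this content. A match is only a match of letters, and binding was not measured.

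Values are in FPKM, fragments divided by transcript length and library size, a level per length that can be set side by side between genes. Grn, the targeted gene, was at 161.3 to 168.4 FPKM in WT and 0.206 to 0.747 FPKM in PGRN KO, so the libraries matched their genotype labels. Each library held between 17087344 and 18821091 fragments on genes, and values correlated across genes more closely within a genotype (Pearson's r of 0.991 to 0.992) than between genotypes (0.978 to 0.981). The authors' scaling places PGRN KO values 0.12 lower on the log2 scale, relative to WT, than plain totals of fragments would. Summed FPKM of 9 neutrophil markers, including Ly6g, S100a8 and S100a9, was 53400 to 57500 in WT, against 55300 to 63900 in PGRN KO. S100a8 and S100a9 carry most of that sum, and over the 9 genes the median log2 fold change was -0.09, with Mmp8 and Csf3r called lower and none higher, but with plain totals the median was 0.03, with 2 genes called higher and none lower. Summed FPKM of 5 promyelocyte markers was 129 to 144 in WT, against 609 to 670 in PGRN KO, and that of 6 B and plasma cell markers was 430 to 445 and 2160 to 2450. Those of 8 monocyte and macrophage markers were 527 to 533 and 552 to 699, in which Ly6c2 rose while Ccr2 and F13a1 fell. Sums for 6 T and NK cell markers (2.74 to 3.61 and 7.74 to 9.22, Cd3e and Cd3g at 0 throughout), 5 basophil and mast cell markers (2.01 to 2.44 and 10.9 to 12.4) and 5 erythroid markers (0.951 to 3.09 and 5.43 to 6.21) were small. In bulk libraries, fewer cells of a type and less RNA per cell cannot be told apart, and the part of these other cells in the results below was not tested.

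The 8 members spanned a wide range of levels. Dusp1 had the highest mean over the 6 libraries (566.0 FPKM), followed by Dusp5 (243.9), Dusp2 (101.5), Dusp16 (33.5), Dusp6 (13.6), Dusp4 (2.81), Dusp7 (1.88) and Dusp10 (0.965). Among 14807 tested genes ordered by mean level, Dusp1 was number 90, Dusp5 number 191 and Dusp2 number 496, whereas Dusp10 was number 9339. No neighbouring pair in this order overlapped over the 6 libraries. The closest neighbours were Dusp4 and Dusp7, whose means differed 1.5-fold, and the widest step, 4.84-fold, separated Dusp6 from Dusp4. Nuclear inducible members thus stood both at the top of the order (Dusp1, Dusp5, Dusp2) and near its lower end (Dusp4).

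**Figure D1:**
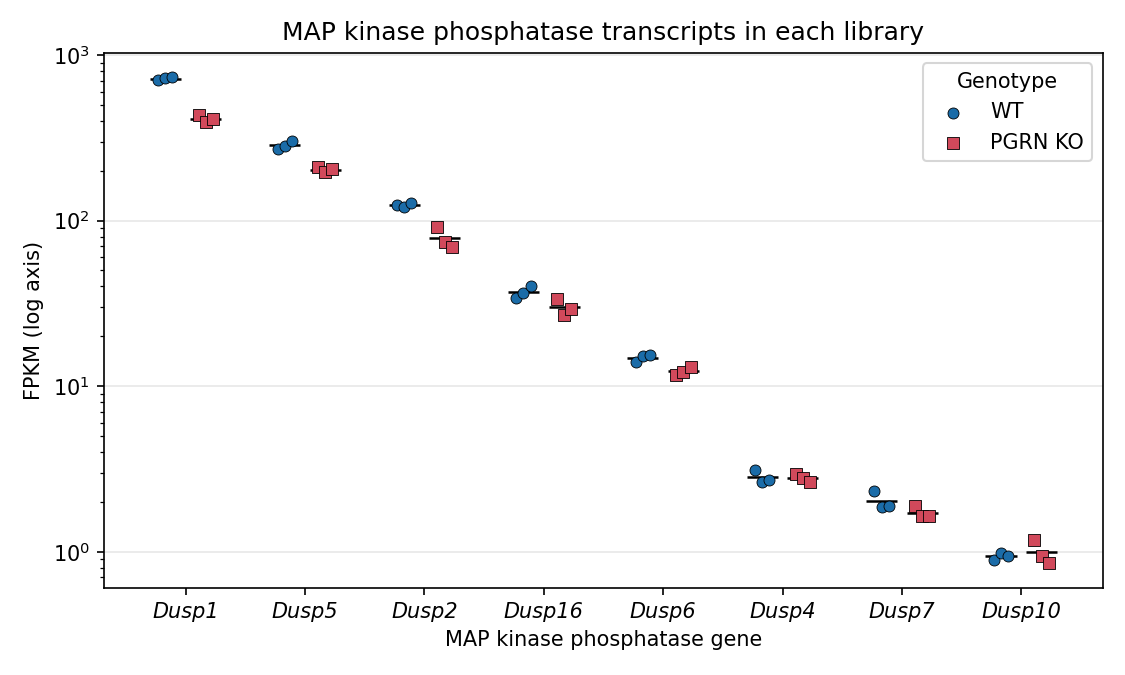
FPKM of the 8 MAP kinase phosphatase genes in each of the 6 libraries, on a log axis, with WT as circles and PGRN KO as squares; short lines are the means of 3 libraries. Dusp1, Dusp5, Dusp2, Dusp16 and Dusp6 were lower in every PGRN KO library than in every WT library, while Dusp4, Dusp7 and Dusp10 overlapped.

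In PGRN KO neutrophils 4 of the 8 MKP genes fell and none rose at an adjusted p under 0.05. The 3 most abundant members, Dusp1, Dusp5 and Dusp2, fell to between 57.4% and 71.4% of their WT means, and Dusp6 fell to 82.8%. Of all 14807 tested genes 17.9% were called in either direction, 9.95% lower and 7.94% higher, and of the 3482 with a mean of at least 10 FPKM, a range that holds 5 of the members, 23.6% were called lower. A total of 5 members, the same 4 and Dusp16, had every PGRN KO library below every WT library, which was the case for 19.6% of all tested genes, while 18.1% had every PGRN KO library above. The median log2 fold change over the 8 members was -0.27, beside 0.003 over all tested genes. With 8 genes these counts are a description of the family and not a test of it.

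Dusp1 (ENSMUSG00000024190, chromosome 17 from 26505590 to 26508519, GRCm38) encodes MKP-1, which acts mainly on p38 and JNK in phagocytes and is the best known brake on their cytokine output. Its WT libraries read 702.3, 722.4 and 733.1 FPKM and its PGRN KO libraries 435.1, 394.9 and 408.3 FPKM. All 3 PGRN KO values lay far below the lowest WT value, with a coefficient of variation between replicates of 2.17% in WT and 4.97% in PGRN KO. Dusp1 fell by 0.80 on the log2 scale of FPKM + 1 (standard error 0.048, adjusted p = 0.000294 from limma). Between 19340 and 33863 fragments per library supported these values, so counting error was small.

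Dusp5 (ENSMUSG00000034765, chromosome 19) encodes a nuclear phosphatase specific for ERK. It was at 268.7, 281.2 and 303.7 FPKM in WT and at 209.7, 195.2 and 204.8 FPKM in PGRN KO. Again the genotypes did not overlap, and the WT libraries were the more spread. Dusp5 fell by 0.48 on the log2 scale (standard error 0.057, adjusted p = 0.00282 from limma), a smaller decrease than that of Dusp1. The ratio of Dusp1 to Dusp5 FPKM within a library, which no library scaling can alter, was 2.41 to 2.61 in WT, against 1.99 to 2.08 in PGRN KO.

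Dusp2 (ENSMUSG00000027368, chromosome 2 from 127336159 to 127338376), also called PAC-1, is a nuclear phosphatase found mainly in blood cells. Values of 124.3, 121.5 and 127.4 FPKM in WT stood against 91.7, 74.5 and 69.4 FPKM in PGRN KO. The 3 WT libraries were close together, whereas PGRN KO replicate 4 stood above the other PGRN KO libraries and nearest to WT. Dusp2 fell by 0.67 on the log2 scale (standard error 0.099, adjusted p = 0.00662 from limma), and without that library it fell by 0.78. Dusp1 to Dusp2 ratios overlapped between genotypes (5.65 to 5.94 in WT, against 4.74 to 5.88 in PGRN KO), so the decrease of one could not be set apart from that of the other.

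Dusp4 (ENSMUSG00000031530, chromosome 8) encodes MKP-2, the nuclear member whose coding sequence at the active site was closest to that of Dusp1. Its levels were 3.12, 2.65 and 2.71 FPKM in WT and 2.94, 2.77 and 2.66 FPKM in PGRN KO. Every PGRN KO value lay within the range of the WT libraries. Its log2 fold change was -0.01, with a 95% interval from -0.18 to 0.16 (adjusted p = 0.94 from limma), an interval that leaves out a decrease of the size seen for Dusp1, Dusp2 or Dusp5. The sign was positive under plain totals of fragments (0.08) and with voom (0.10), and no setting gave a call.

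Dusp6 (ENSMUSG00000019960, chromosome 10) encodes MKP-3, the cytoplasmic ERK phosphatase that is widely used as a readout of ERK activity. WT libraries were at 13.9, 15.2 and 15.5 FPKM, and PGRN KO libraries at 11.6, 12.3 and 13.1 FPKM. The groups did not overlap, but the highest PGRN KO library was within 1 FPKM of the lowest WT library. Dusp6 fell by 0.25 on the log2 scale (standard error 0.064, adjusted p = 0.0377 from limma). This call was lost with plain totals (log2 fold change -0.14, adjusted p = 0.161), with voom on fragments (-0.15, adjusted p = 0.156), and when WT replicate 2 or 3 or PGRN KO replicate 4 or 5 was omitted (adjusted p from 0.0905 to 0.126).

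Dusp7 (ENSMUSG00000053716, chromosome 9), the other cytoplasmic ERK phosphatase, was at 2.32, 1.86 and 1.90 FPKM in WT and 1.90, 1.64 and 1.64 FPKM in PGRN KO. PGRN KO replicate 4 lay inside the WT range. The log2 fold change was -0.15 with a 95% interval from -0.35 to 0.06 (adjusted p = 0.296 from limma). That interval includes both no difference and the log2 fold change measured for Dusp6. Adding 1 to FPKM shrinks the log2 fold change of genes at a few FPKM, so these values do not rank Dusp7 against Dusp6. As a percent of the WT mean, Dusp7 was at 85.35% and Dusp6 at 82.78%.

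Dusp16 (ENSMUSG00000030203, chromosome 6) encodes MKP-7, a JNK and p38 phosphatase that shuttles between nucleus and cytoplasm. It was at 34.3, 36.5 and 40.1 FPKM in WT and at 33.7, 26.8 and 29.5 FPKM in PGRN KO. The groups did not overlap, although PGRN KO replicate 4 lay within 1 FPKM of the lowest WT library. Its log2 fold change of -0.29 (95% interval from -0.52 to -0.07) had an adjusted p of 0.0769 from limma and did not pass the threshold. Without PGRN KO replicate 4 it was -0.38 with an adjusted p of 0.038. An antisense gene, Gm36328, overlaps Dusp16 at 0.236 to 0.811 FPKM, and since the library kit does not mark strand, reads from the shared bases cannot be told apart. Dusp10 likewise overlaps 1700056E22Rik (at most 0.0471 FPKM). By the positions in the deposited table no other member overlaps a gene, but GENCODE M21, in which Dusp1 is annotated over a different range, has exons of Ergic1 and AC137853.2 overlapping those of Dusp1 and Dusp5.

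Dusp10 (ENSMUSG00000039384, chromosome 1) encodes MKP-5, which acts on JNK and p38. It was the least abundant member, at 0.890, 0.985 and 0.941 FPKM in WT and 1.18, 0.941 and 0.853 FPKM in PGRN KO. One PGRN KO library was above all WT libraries and another was below them. The log2 fold change was 0.03 (95% interval from -0.16 to 0.23, adjusted p = 0.81 from limma). Only 46 to 64 fragments per library supported these values, so a small difference was not detectable at this depth. On the linear FPKM values, an exact two-sided permutation test gave p = 0.80 for Dusp10, 0.90 for Dusp4, 0.30 for Dusp7 and 0.10 for each of the other 5 members, and 0.10 is the smallest p that 3 libraries against 3 can give.

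**Figure D2:**
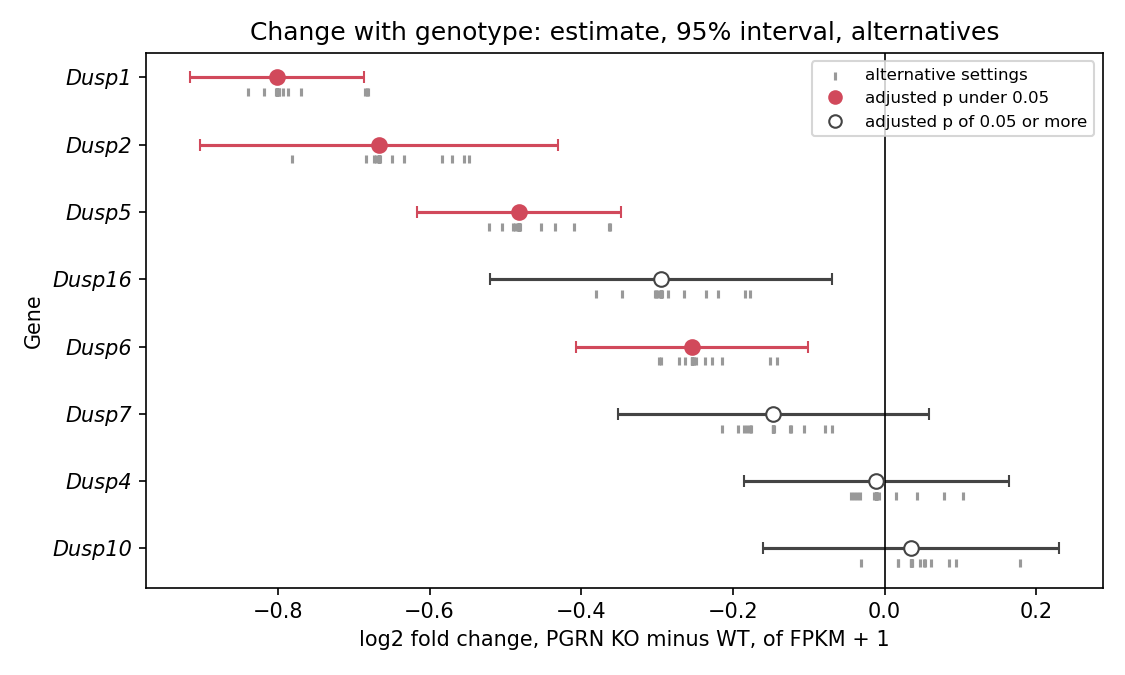
Log2 fold change of FPKM + 1 (PGRN KO minus WT) of each MAP kinase phosphatase gene, with the 95% interval from limma; filled circles have an adjusted p under 0.05, and grey ticks are the estimates under the alternative settings. Every estimate of Dusp1, Dusp2, Dusp5, Dusp6, Dusp7 and Dusp16 was below 0, whereas those of Dusp4 and Dusp10 lay on both sides of 0.

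The summed level of the family was lower and its makeup slightly different, although Dusp4, Dusp7 and Dusp10 overlapped between genotypes. Summed over the 8 genes, MKP transcripts were at 1150, 1182 and 1225 FPKM in WT and at 788, 709 and 730 FPKM in PGRN KO, without overlap. The nuclear inducible members made up 95.2% to 95.5% of this sum in WT, against 93.8% to 94.1% in PGRN KO. Dusp1 alone made up 59.8% to 61.1% in WT, against 55.2% to 55.9% in PGRN KO, and Dusp5 23.4% to 24.8% and 26.6% to 28.1%. The ERK-selective pair Dusp6 and Dusp7 made up 1.41% to 1.45% and 1.72% to 2.02%, and the JNK and p38-selective pair Dusp10 and Dusp16 3.06% to 3.35% and 3.92% to 4.43%. These shares are ratios within a library, so they do not depend on how libraries were scaled, and none of these 5 shares overlapped between genotypes. They are parts of the same sum, some nested in others, so a smaller Dusp1 share by itself enlarges the rest. The 5 shares are thus not separate observations. Dusp1 was 18.3 to 20.5 times Dusp16 in WT and 12.9 to 14.7 times in PGRN KO.

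**Figure D3:**
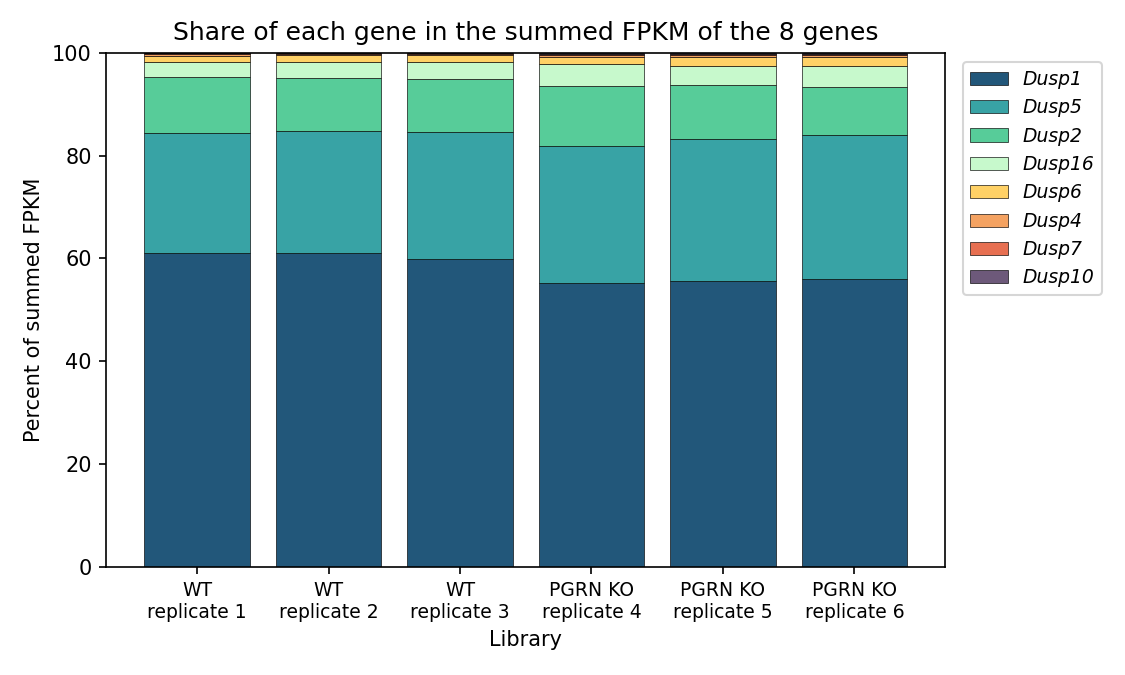
Share of each gene in the summed FPKM of the 8 MAP kinase phosphatase genes, as a percent, in each of the 6 libraries (stacked bars from 0 to 100). The Dusp1 share was 59.8% to 61.1% in WT, against 55.2% to 55.9% in PGRN KO, with larger shares of Dusp5 and Dusp16 in PGRN KO.

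In profile over the 6 libraries, Mreg and Dgkz were among the 3 genes most like Dusp1. Likeness was the root mean square distance between log2(FPKM + 1) values centred on each gene's mean, among 5135 tested genes with a mean of at least 5 FPKM, and it was 0.034 and 0.041 for these genes. Mreg, which encodes a melanosome and phagosome trafficking protein, was at 151.9 to 158.4 FPKM in WT and at 82.2 to 91.0 FPKM in PGRN KO. Dgkz, a diacylglycerol kinase, was at 77.2 to 80.1 and 44.4 to 47.4 FPKM. Both genes were picked by likeness over these same libraries, so their lower PGRN KO values follow from the choice and are not a separate result.

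A feature that the choice of members did not use is the AU-rich pentamer ATTTA in the 3′ untranslated region, which is bound by RNA decay proteins such as tristetraprolin. Dusp1 and Dusp2 held 4 copies each, 5.80 and 6.88 per kilobase, and the other members 0 to 3 copies, 0.00 to 2.70 per kilobase. Across 10857 other tested protein-coding genes the median was 1.23 per kilobase, and 65.8% held at least 1 copy. Dusp5 and Dusp6, which also fell, held 1 copy each.

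Outside the 8 members, 3 of 17 further tested phosphatases fell, beside 9.95% of all tested genes, or 23.6% of those with a mean of at least 10 FPKM. Dusp8, a further JNK and p38 phosphatase, was at 1.48 to 1.67 FPKM in WT, against 0.837 to 1.43 in PGRN KO (log2 fold change -0.28, adjusted p = 0.134 from limma), and Dusp9 had 2 fragments in all and was not tested. Of 8 tested atypical dual-specificity phosphatases, which lack the MAP kinase docking domain, 1 fell and none rose with the authors' scaling (1 rose with voom). The gene that fell was Dusp3 (VHR), an ERK and JNK phosphatase, which was at 6.90 to 7.99 FPKM in WT and at 3.86 to 4.09 FPKM in PGRN KO, and fell by 0.74 on the log2 scale (adjusted p = 0.00118 from limma). Dusp13 was under the minimum level for testing, with 22 fragments in WT (3 libraries summed) and 0 in PGRN KO. Among 8 tested phosphatases of other families, Ppp2ca (the catalytic subunit of protein phosphatase 2A) and Ppm1a fell by 0.23 each (adjusted p = 0.0314 and 0.034 from limma) and none rose. Neither call held with plain totals, where 1 gene of this list rose, or with voom, where 2 rose, and 1 rose with quantile normalization.

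Transcripts of the kinases on which the MKPs act moved in both directions. Of all tested genes 9.95% were called lower and 7.94% higher, and with so few genes the counts below are only a description. Of 4 ERK family genes, Mapk3 (ERK1) rose, with 139.4 to 143.9 FPKM in WT and 157.9 to 170.0 FPKM in PGRN KO (log2 fold change 0.20, adjusted p = 0.0196 from limma), while the less typical members Mapk6 and Mapk7 fell by 0.38 and 0.40. Of 4 tested JNK and p38 genes 2 rose and none fell: Mapk14 (p38 alpha) by 0.25 (adjusted p = 0.0115) and Mapk13 (p38 delta) by 0.42 (adjusted p = 0.00499). In every setting that changed the scaling both p38 genes kept their positive sign. The ratio of Dusp1 to Mapk14 FPKM was 26.3 to 26.9 in WT, against 12.1 to 13.9 in PGRN KO.

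Upstream of the MAP kinases few transcripts passed the test, beside 9.95% of all tested genes called lower and 7.94% called higher. Map2k3, the kinase of p38, was 1 of 6 tested MAP2 kinases and fell by 0.26 (adjusted p = 0.00773 from limma). Grb2, the adaptor that brings RAS activators to receptors, was 1 of 13 tested RAS and scaffold genes and fell by 0.33 (adjusted p = 0.0274 from limma). The call of Grb2 was lost with plain totals, with quantile normalization (adjusted p = 0.0678) and with every gene above 0 kept (adjusted p = 0.054). None of the genes on these 2 lists rose, except for 1 RAS or scaffold gene with plain totals. No call was made among the 5 tested sprouty and SPRED genes, the other feedback inhibitors of this pathway, of which Spry2 had the highest log2 fold change at 0.30 (adjusted p = 0.0894) and was called higher with plain totals.

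Downstream of the MAP kinases, lists of their substrate kinases and of transcripts they are known to induce were examined. Their counts stand beside 9.95% of all tested genes called lower and 7.94% called higher. Among tested genes with a mean of at least 10 FPKM, 23.6% were called lower, and many of the listed genes lie in that range. Of 10 tested kinases activated by MAP kinases, 3 fell and none rose (1 rose with plain totals and 2 with voom): Mknk2 by 0.55, Rps6ka2 by 0.45 and Mknk1 by 0.42 (adjusted p = 0.00282, 0.00469 and 0.00225 from limma). Of 14 tested ERK-induced transcripts 6 fell and none rose with the authors' scaling, whereas 5 fell and 1 rose with plain totals and 6 fell and 2 rose with voom. Egr1, an immediate early zinc finger factor, was at 39.9 to 41.1 FPKM in WT and at 18.9 to 23.1 FPKM in PGRN KO, and fell by 0.88 on the log2 scale (adjusted p = 0.000971). Fos was at 42.8 to 45.8 FPKM in WT and at 24.4 to 27.4 FPKM in PGRN KO, and fell by 0.75 (adjusted p = 0.000576). Decreases of Egr2, Jun, Junb and Etv5 were 0.77, 0.62, 0.52 and 0.47 (adjusted p from 0.000846 to 0.0266 from limma). The call of Junb was lost under plain totals and quantile normalization. Adding 1 to FPKM shrinks the log2 fold change of genes at a few FPKM, so these sizes do not rank the genes. As a percent of the WT mean, Etv5 was at 57.85%, Jun at 65.0% and Junb at 70.23%. The list median was -0.21 and remained negative under the 4 other scalings.

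DUSP1 destabilizes many inflammatory transcripts by holding back p38, which in turn controls the RNA decay protein tristetraprolin, the product of Zfp36. Of 12 transcripts of that axis 6 fell and none rose with the authors' scaling. Of all tested genes 9.95% were called lower. Among those with a mean of at least 10 FPKM, where most of these 12 lie, 23.6% were called lower. With quantile normalization 4 fell, and with voom 6 fell and 1 rose. Zfp36 itself was at 590.8 to 607.4 FPKM in WT and at 306.4 to 466.1 FPKM in PGRN KO, and fell by 0.65 (adjusted p = 0.0225 from limma). Ptgs2 (cyclooxygenase 2) and Il10 fell by 0.64 and 0.61 (adjusted p = 0.00232 and 0.00169), and the chemokines Cxcl1, Ccl3 and Cxcl2 by 0.36, 0.33 and 0.28 (adjusted p from 0.0115 to 0.0272). The last of these was at 3937 to 4000 FPKM in WT, against 3099 to 3576 in PGRN KO, and its call was lost under plain totals and quantile normalization, the latter also ending the call of Ccl3. Il1b had the highest value of the list, a log2 fold change of 0.07 (adjusted p = 0.561). Tnf, named after its values were seen because it is a classic target of this axis, was at 1263 to 1277 FPKM in WT, against 1147 to 1480 in PGRN KO, overlapping, with a log2 fold change of -0.01 that was positive (0.12) with plain totals.

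Glucocorticoids are known inducers of Dusp1, so other transcripts they induce were also listed. The counts stand beside 9.95% of all tested genes called lower and 7.94% called higher. Of tested genes with a mean of at least 10 FPKM, 23.6% were called lower. Of 6 tested, Sgk1, Per1 and Nfkbia fell by 0.70, 0.49 and 0.26 (adjusted p = 0.00502, 0.0176 and 0.0491 from limma), the last call being lost with plain totals. Tsc22d3 (GILZ) rose by 0.56 (adjusted p = 0.00219 from limma). It was at 9.48 to 10.1 FPKM in WT and at 14.4 to 16.1 FPKM in PGRN KO. By sign alone, 5 of the 6 tested genes fell with the authors' scaling and 4 with plain totals. A part of glucocorticoids in these differences was not tested.

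Over all 103 tested genes of the pathway lists, members left out, 26 fell and 4 rose with the authors' scaling. With plain totals of fragments 20 fell and 12 rose. Of all 14807 tested genes, 1473 fell and 1175 rose with the authors' scaling, and 934 fell and 2149 rose with plain totals. The median log2 fold change of these genes was -0.08 and 0.002 under the same scalings, beside 0.003 and 0.07 for all tested genes. Dusp1, Dusp2 and Dusp5 were called lower under both, by 0.68, 0.55 and 0.36 on the log2 scale with plain totals. When 1 library was left out, the calls of Ppm1a, Ppp2ca, Mapk3, Mapk6, Mapk14, Grb2, Junb, Per1, Nfkbia, Cxcl2, Ccl3 and Zfp36 were lost in at least 1 of the 6 fits, most often without WT replicate 2 (all 12 genes) or PGRN KO replicate 5 (10 of them), with adjusted p from 0.0513 to 0.16 from limma and no change of sign. The call of Map2k3 was lost with voom (adjusted p = 0.0594).

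**Figure D4:**
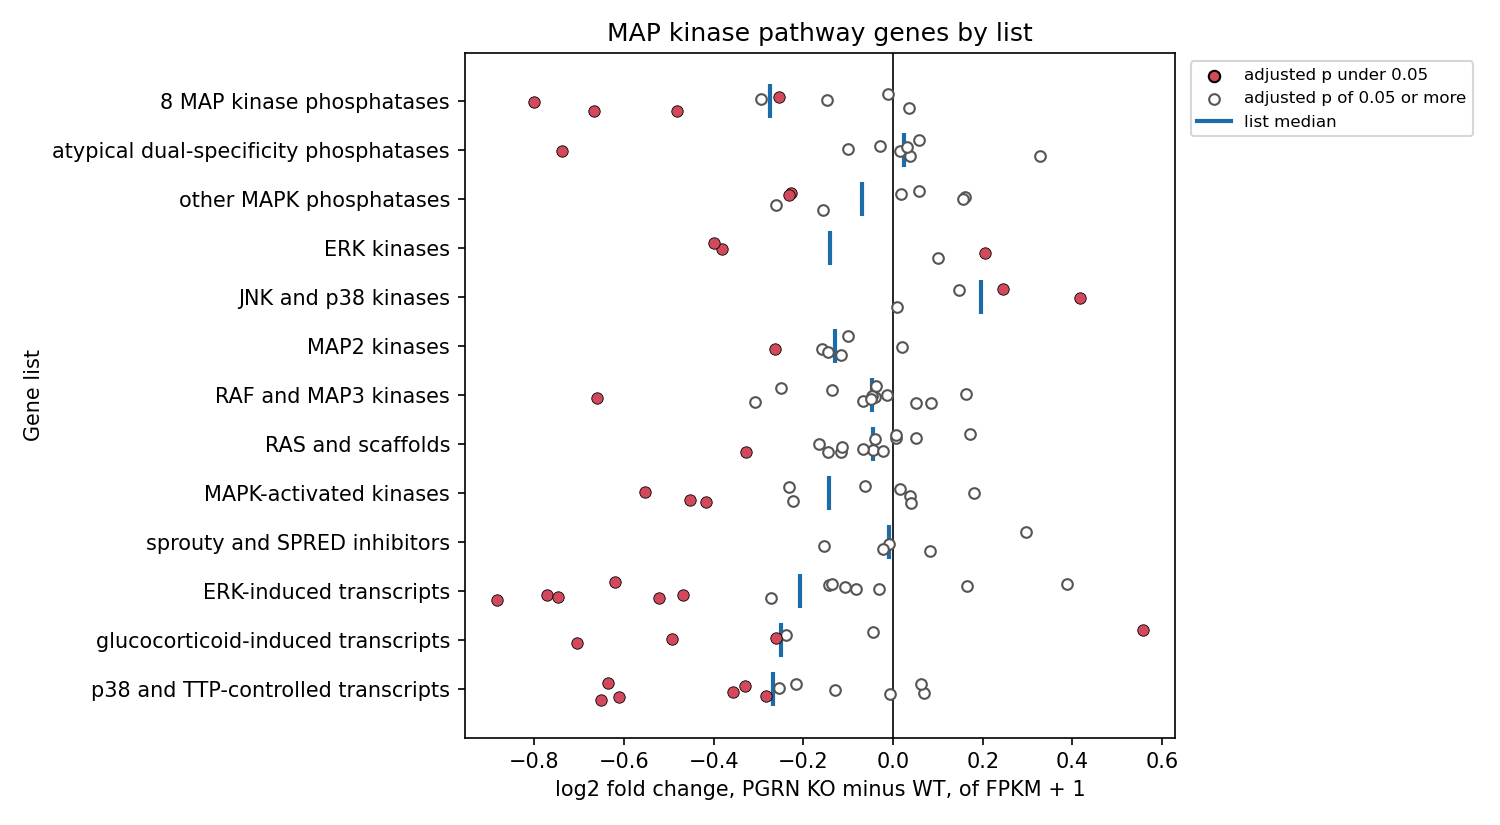
Log2 fold change of FPKM + 1 (PGRN KO minus WT) of every tested gene on each list; red filled points have an adjusted p under 0.05 from limma, open points do not, and blue lines are list medians. The 4 red points among the MAP kinase phosphatases are all below 0, as are the 6 ERK-induced and the 6 p38 and TTP-controlled ones, while both called JNK and p38 kinase genes are above 0.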

How the data were processed

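RNA of 6 neutrophil cultures was sequenced, with samples grouped by the genotype in their labels. The authors deposited FPKM values for 54532 genes. Per the labels, processing named HISAT2 2.0.5, featureCounts 1.5.0-p3 and DESeq2 1.20.0 with the GRCm38 (mm10) build, whereas the methods of the study name HTSeq. Multiplied by gene length and by a library size estimated from the smallest values, every deposited value above 0 came within 0.05 of an integer number of fragments, giving the depth (17087344 to 18821091 fragments per library, counting error only). From the FPKM values, log2(FPKM + 1) was fitted with limma 3.58.1 (eBayes with trend) in R 4.3.3 over the 14807 genes averaging at least 0.1 FPKM, two-sided, with Benjamini-Hochberg adjustment over all of them and a threshold of 0.05. The fit was tested on simulated data. FPKM are not counts, so DESeq2 was not run here. Python 3.11.15, numpy 2.4.6, pandas 2.3.3, scipy 1.17.1 and matplotlib 3.10.9 served for the rest.

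Genes named are the 8 members, Grn, listed genes that passed the threshold or were the extremes of their list, and the genes nearest to Dusp1, except for a few items that are not reported here. The members and lists were chosen with earlier results of these data known. Alternatives were 2 pseudocounts, 2 filters, 3 scalings, 2 forms of eBayes, voom and each library left out. Protein sequences were not used here.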

Additional observations from a re-analysis of the deposited data

How the results depend on the processing

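Over the 8 members and the alternatives run, 112 of 127 estimates kept both direction and side of the threshold. Dusp1 (-0.84 to -0.68), Dusp2 (-0.78 to -0.55) and Dusp5 (-0.52 to -0.36) were called lower under each. Dusp6 was not called with every gene above 0 kept (-0.25, adjusted p = 0.0603 from limma) or without trend (-0.25, adjusted p = 0.0542). It was also not called with plain totals (-0.14), with voom (-0.15) or in 4 of the fits that left out a library. All fits that left out a library, called or not, spanned -0.30 to -0.22. Dusp16 was called with a minimum mean of 1 FPKM (-0.29, adjusted p = 0.0496), which tests fewer genes, and without PGRN KO replicate 4, in a leave-one-out range of -0.38 to -0.22. Dusp4 was positive with plain totals (0.078) and voom (0.104), and its leave-one-out range was -0.044 to 0.043, positive without WT replicate 1 (0.043) and PGRN KO replicate 6 (0.015). Dusp10 was -0.031 without PGRN KO replicate 4 and otherwise up to 0.085 among these fits. Tnf was positive with plain totals (0.115), voom (0.114), quantile normalization (0.054) and without PGRN KO replicate 5 (0.064) or 6 (0.04), in a leave-one-out range of -0.12 to 0.064. The causes were not tested. Among the other named genes 498 of 576 estimates held both direction and call.

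Genes called higher numbered 1175, with 2149 under plain totals, 2986 with voom and 540 to 913 with a library left out. Genes called lower numbered 1473, with 934 under plain totals and 775 to 1248 with a library left out. Among the pathway lists 4 were called higher, 12 with plain totals and 17 with voom. Each leave-one-out fit assumes that the genotype left with fewer libraries varies like the other. No paired analysis was possible because the genotypes share no replicate numbers in the labels. Dusp10 rests on 46 to 64 fragments per library.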
